A study of Rattus norvegicus with 16 samples.

Results

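Amino acid starvation and serine synthesis genes were followed in messenger RNA of the rat ventral prostate, a male accessory gland that depends on androgens and adds its secretion to the semen. The set has 37 genes, listed by name: enzymes of serine, proline, asparagine and cysteine synthesis, amino acid transporters, and the regulators and targets of the response to amino acid shortage. Of these, 37 have an entry among the 24218 entries counted at postnatal day (PND) 540 and 36 among the 28688 counted at PND21, where Nupr1 was not analysed here. The rats (Rattus norvegicus) were offspring of dams fed either 6% protein through gestation and lactation (GLLP) or a normal diet with 17% protein (CTR). The groups held 4 GLLP and 5 CTR libraries at PND540, and 3 GLLP and 4 CTR libraries at PND21. No strain, genotype or litter is named in the labels, so p-values measure only the spread between these samples.

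Cells short of an amino acid accumulate uncharged transfer RNA, which activates the kinase GCN2 (Eif2ak4). GCN2, like the endoplasmic reticulum kinase PERK (Eif2ak3), phosphorylates the translation factor eIF2alpha, which lowers protein synthesis in general while translation of Atf4 messenger RNA increases. The transcription factor ATF4 then pairs with C/EBP proteins on response elements of genes for amino acid synthesis, uptake and stress control. Serine is made from a glycolytic intermediate by Phgdh, Psat1 and Psph in turn, and the enzymes Shmt2 and Mthfd2 pass its carbon to folate in mitochondria.

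Totals per library lay between 28748604 and 39161666 counts. Levels are given in CPM, the usual count scaled to a common library total, after the TMM correction for RNA composition. A gene is called when its adjusted p is under 0.05 (edgeR quasi-likelihood test, Benjamini-Hochberg over all genes tested). Secretory genes of the gland marked the tissue at both ages. The listed luminal genes with an entry, tested or not, summed to 17600 to 93990 CPM at PND540. At PND21 the 13 luminal genes summed to 42770 to 76110 CPM. At PND540, CTR replicate 5 stood apart, with a median correlation of 0.851 with the other libraries against at least 0.956 for each of those. In CTR replicate 1 of PND21, mitochondrial genes held 0.282% of counts, against 3.66% to 5.02% in the other libraries of that age. In that library 12 of the 13 mitochondrial genes had 0 counts, against 0 or 1 in the others.

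The members include targets of the response to amino acid shortage, so the share given below is not independent of how they were chosen. The core of the C/EBP-ATF response element, TGATGNAA on either strand, was searched in the RefSeq promoters of GRCr8, from 250 bases before to 50 after the annotated start. Each member had 1 such window apart from the transporter chain Slc3a2, which had 2. It was found in 8 of the 34 members with an entry (23.5%) and in 1332 of 33469 promoters of all genes (3.98%). The members that held it were the stress genes Chac1, Trib3, Nupr1 and Fgf21, the proline enzyme Pycr1, the aspartate transaminase Got1 and the transporters Slc7a1 and Slc1a4. For Aldh18a1, Slc1a5 and Eif4ebp1 no promoter was analysed here. The stretches around the match in Chac1 (chr3:126795938-126795997, plus strand), Trib3 (chr3:161275534-161275580, minus strand), Slc1a4 (chr14:98761764-98761812, minus strand), Pycr1 (chr10:106420910-106420969, minus strand) and Slc7a1 (chr12:11664432-11664487, plus strand) are shown 5′ to 3′ on the strand of the gene, with the match in capitals, because they hold the sequence through which ATF4 is known to act.
Chac1: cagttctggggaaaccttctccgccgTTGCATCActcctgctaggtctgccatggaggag
Trib3: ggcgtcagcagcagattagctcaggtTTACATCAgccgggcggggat
Slc1a4: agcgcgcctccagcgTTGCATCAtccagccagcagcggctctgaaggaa
Pycr1: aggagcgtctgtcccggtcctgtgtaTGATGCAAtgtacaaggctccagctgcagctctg
Slc7a1: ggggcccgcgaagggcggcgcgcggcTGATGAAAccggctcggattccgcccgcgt
In Chac1, Trib3 and Slc1a4 the match is on the other strand of the gene and reads as the reverse complement. A match is a stretch of letters and not a measured binding site.

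The 150 bases before the start of Psat1 (chr1:222645409-222645558, minus strand), the member that was called for diet, and of Asns (chr4:36769416-36769565, minus strand), a classical target of ATF4, are shown for contrast and hold no match, so no capitals.
Psat1: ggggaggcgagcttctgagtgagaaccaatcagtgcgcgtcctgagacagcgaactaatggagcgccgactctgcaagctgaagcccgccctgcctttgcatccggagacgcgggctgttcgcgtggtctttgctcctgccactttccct
Asns: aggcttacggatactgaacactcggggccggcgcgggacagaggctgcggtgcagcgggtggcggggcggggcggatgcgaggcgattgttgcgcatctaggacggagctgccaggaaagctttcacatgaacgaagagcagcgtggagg
The absence says only that TGATGNAA is not in these windows.

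At PND21 the maternal diet set 1 member apart. Psat1, the phosphoserine aminotransferase in the middle of serine synthesis, rose 3.70-fold in GLLP glands, and the other serine synthesis genes Phgdh and Psph lay 1.39-fold and 1.25-fold higher without passing the adjusted threshold. Of the 35 members tested, 1 was called (2.86%), while 1.11% of all 14915 genes tested were called. An unadjusted p under 0.05 was reached by 8 members, against 19.3% of all genes. Estimates were above 0 in 29 members, where 49.5% of all genes were above 0, and the median log2 fold change of GLLP over CTR was 0.22 for the members and -0.0038 for all genes. With library sizes left uncorrected for composition, the median over all genes shifted by 0.14 and 33 members lay above 0, with Eif2ak3, Eif2ak4, Ppp1r15a and Slc6a9 changing sign.

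Psat1 had 101, 48.0 and 58.9 CPM in GLLP replicates 2, 3 and 4, against 12.1, 17.6, 18.4 and 26.5 CPM in CTR replicates 1 to 4. Every GLLP library lay above every CTR library, and GLLP replicate 2 lay above all others. The means were 69.1 ± 27.8 CPM in GLLP (SD, n = 3) and 18.7 ± 5.92 CPM in CTR (SD, n = 4), which gave 1.89 on the log2 scale (SE 0.30, adjusted p = 0.0298 in edgeR, rank 92 of all genes by p). The size of the difference was stable over 18 other ways of fitting it, with log2 fold changes from 1.51 to 2.11, but the call was not, and it held in 10 of them. Without GLLP replicate 2, the library with the highest Psat1 level, the log2 fold change was 1.51 (adjusted p = 0.0146). Leaving out GLLP replicate 4 or CTR replicates 1, 2 or 3 ended the call, with adjusted p of 0.104, 0.0658, 0.103 and 0.0722.

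Phgdh, the dehydrogenase that opens the serine pathway, had 176, 120 and 119 CPM in GLLP libraries, against 97.9, 111, 86.1 and 103 CPM in CTR libraries. The groups did not overlap, but only GLLP replicate 2 was far from the CTR range. The log2 fold change was 0.48 (SE 0.15, adjusted p = 0.151, edgeR). Psph, the phosphatase that releases serine, had 38.3, 28.3 and 37 CPM in GLLP libraries, against 26.1, 29.2, 25.5 and 29.6 CPM in CTR libraries. Here GLLP replicate 3 lay within the CTR range and the others lay above it (log2 fold change 0.32, SE 0.13, adjusted p = 0.214, edgeR). Shmt2, which splits serine to glycine and a folate-bound carbon, averaged 40.4 ± 5.25 CPM in GLLP and 37.9 ± 1.56 CPM in CTR (SD, n = 3 and 4). Mthfd2, the next mitochondrial folate enzyme, averaged 110 ± 15.7 CPM in GLLP and 96.9 ± 26.5 CPM in CTR. Their 95% intervals of the log2 fold change ran from -0.14 to 0.33 for Shmt2 and from -0.29 to 0.64 for Mthfd2.

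**Figure D1:**
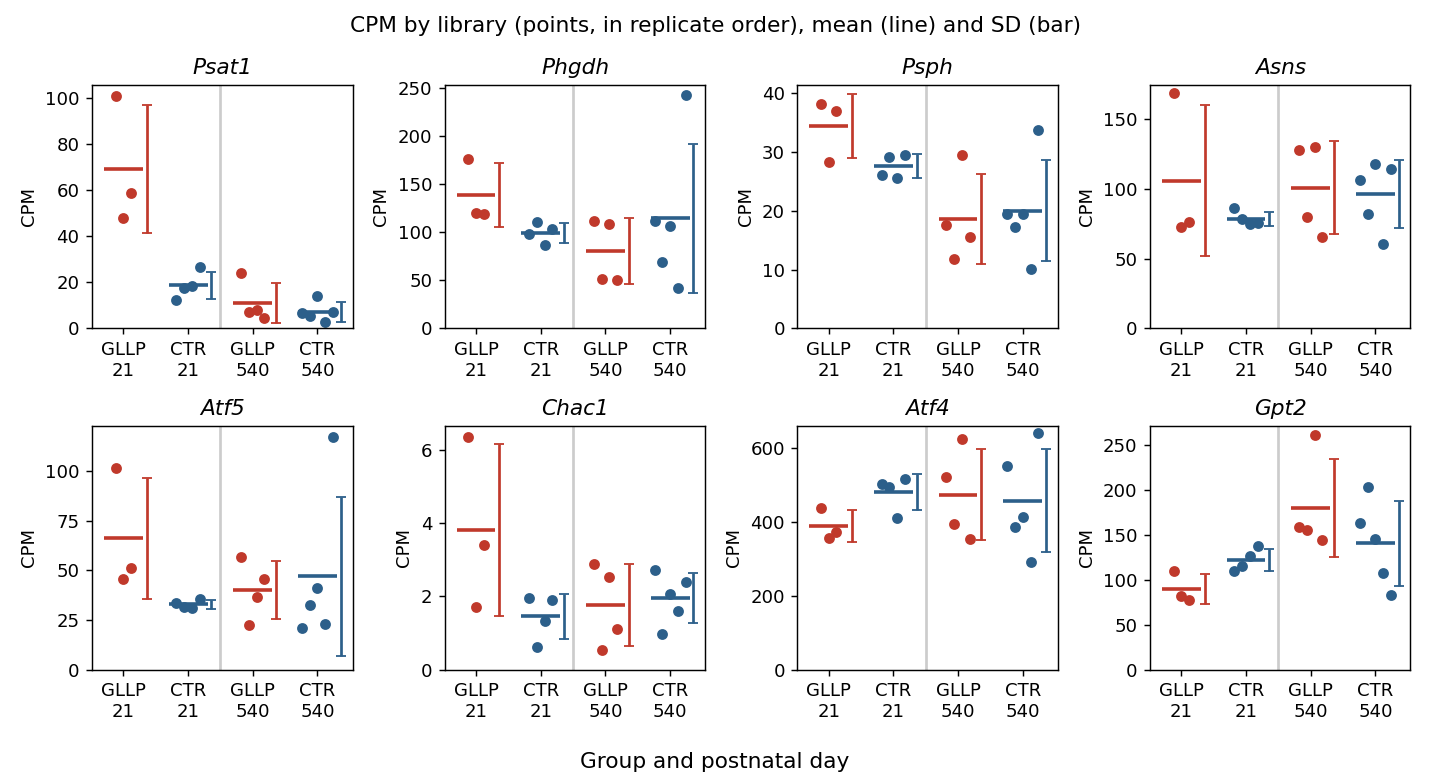
CPM by library for 8 members, on linear axes that start at 0, with GLLP in red and CTR in blue at PND21 and PND540; each point is 1 library, the line is the mean and the bar is the SD. Psat1 at PND21 has its lowest GLLP point at 48.0 CPM and its highest CTR point at 26.5 CPM, and Asns has 1 GLLP point at 169 CPM with the other GLLP points beside the CTR points.

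Of the transaminase, asparagine and proline genes 0 were called and 3 of 4 tested had estimates above 0. Gpt2, the mitochondrial alanine transaminase, had 109.38, 82.2 and 77.6 CPM in GLLP libraries, against 109.43, 115, 126 and 138 CPM in CTR libraries. The groups touched without overlapping, with every GLLP value below every CTR value. Its log2 fold change was -0.45 (SE 0.14, adjusted p = 0.14, edgeR). Without GLLP replicate 2 it was -0.61 (adjusted p = 0.016), in a fit that called 9.96% of all genes. With any other library left out Gpt2 was not called. Asns, the asparagine synthetase, had 169, 72.7 and 76.6 CPM in GLLP libraries, against 86.0, 78.3, 75.0 and 75.3 CPM in CTR libraries. GLLP replicate 2 was high, and replicates 3 and 4 lay at the CTR level (log2 fold change 0.43, adjusted p = 0.402, edgeR).

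Pycr1, the last enzyme of proline synthesis, averaged 49.99 ± 10.5 CPM in GLLP and 44.4 ± 2.39 CPM in CTR (SD, n = 3 and 4). Got1, the cytosolic aspartate transaminase, averaged 26.8 ± 3.98 CPM in GLLP and 24.8 ± 3.08 CPM in CTR. Aldh18a1, which opens proline synthesis, had 0 counts in all 7 libraries, which allows a level of up to 0.0766 to 0.0983 CPM, depending on the library (3 counts, without TMM scaling, counting error only), and it was not tested. The tables of the ages list different genes, so whether this entry was counted alike at both ages is not known, and no absence of expression is read from its zeros. Of the genes that turn homocysteine into cysteine, Cbs averaged 183 ± 38.9 CPM in GLLP and 182 ± 21.7 CPM in CTR. Cth, the second enzyme of that route, averaged 16.8 ± 3.32 CPM in GLLP and 11.9 ± 3.35 CPM in CTR (log2 fold change 0.49, adjusted p = 0.283, edgeR). Neither pair of groups was separated.

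Among the 8 transporters none was called and 7 had estimates above 0. Slc1a4, which carries serine, alanine and other neutral amino acids, had the smallest p, with 33.4, 22.3 and 25.1 CPM in GLLP libraries, against 18, 16.3, 15.4 and 26.3 CPM in CTR libraries. CTR replicate 4 lay within the GLLP range while the other CTR libraries lay below it (log2 fold change 0.50, SE 0.21, adjusted p = 0.235, edgeR). Slc7a5, the large neutral amino acid exchanger, averaged 77.6 ± 18.1 CPM in GLLP and 54.3 ± 21.9 CPM in CTR. Its partner chain Slc3a2 had 368 CPM in GLLP replicate 2, and the other libraries of both diets lay between 165 and 236 CPM. The cystine importer Slc7a11 had 21.5, 9.49 and 4.52 CPM in GLLP libraries and 2.08, 5.32, 3.70 and 17.3 CPM in CTR libraries, so that libraries of both groups spanned nearly the same range. The glutamine carrier Slc1a5 (log2 fold change 0.44), the cationic amino acid carrier Slc7a1 (0.08), the neutral carrier Slc38a2 (0.05) and the glycine carrier Slc6a9 (-0.09) had adjusted p between 0.296 and 0.841 (edgeR).

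The eIF2alpha kinases differed little between diets. Eif2ak3 (PERK) had 119, 118 and 115 CPM in GLLP libraries, against 134, 123, 125 and 123 CPM in CTR libraries. The groups did not overlap, yet the log2 fold change was only -0.11 (SE 0.07, adjusted p = 0.446, edgeR). Eif2ak4 (GCN2) averaged 85.6 ± 7.65 CPM in GLLP and 86.1 ± 6.89 CPM in CTR (SD, n = 3 and 4), with a 95% interval of the log2 fold change from -0.23 to 0.21.

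Atf5, an ATF4 target that is itself a transcription factor, had 101, 45.9 and 51.0 CPM in GLLP libraries, against 33.5, 31.5, 30.8 and 35.4 CPM in CTR libraries. Every GLLP library was above the narrow CTR range, GLLP replicate 2 most of all. The log2 fold change was 1.01 (SE 0.25, adjusted p = 0.093, edgeR). Without GLLP replicate 2 it was 0.56 with an adjusted p of 0.0161, in a fit that called 9.96% of all genes. With any other library left out Atf5 was not called. Atf4 itself lay the other way, with 436, 355 and 372 CPM in GLLP libraries, against 502, 494, 410 and 514 CPM in CTR libraries. Only CTR replicate 3 reached into the GLLP range (log2 fold change -0.31, SE 0.12, adjusted p = 0.205, edgeR). Cebpb, which encodes a C/EBP partner of ATF4, had 5.76, 9.05 and 26.6 CPM in GLLP libraries, against 6.93, 7.01, 8.47 and 6.54 CPM in CTR libraries, and GLLP replicate 4 alone stood off from the rest. Cebpg (log2 fold change 0.05) and Ddit3, the stress factor CHOP (0.21), had adjusted p of 0.879 and 0.397 (edgeR).

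Chac1, a glutathione-degrading enzyme induced through ATF4, had 6.37, 1.70 and 3.40 CPM in GLLP libraries, against 1.96, 0.622, 1.32 and 1.91 CPM in CTR libraries. GLLP replicates 2 and 4 lay above the CTR range and replicate 3 within it. The log2 fold change was 1.39 (SE 0.48, adjusted p = 0.181, edgeR). Trib3, the pseudokinase that feeds back on ATF4, averaged 5.85 ± 1.81 CPM in GLLP and 4.32 ± 1.39 CPM in CTR (SD, n = 3 and 4). The phosphatase subunit Ppp1r15a, which restores translation, averaged 45.7 ± 6.57 CPM in GLLP and 46.3 ± 2.59 CPM in CTR. The mTORC1 inhibitors Sesn2 and Ddit4 and the translation repressor Eif4ebp1 had log2 fold changes of 0.13, 0.23 and 0.10 and adjusted p between 0.48 and 0.583 (edgeR). Of the secreted factors Fgf21 and Stc2 and the lipoprotein receptor Vldlr, all estimates were above 0 (0.57, 1.36 and 0.22) and the smallest adjusted p was 0.338.

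**Figure D2:**
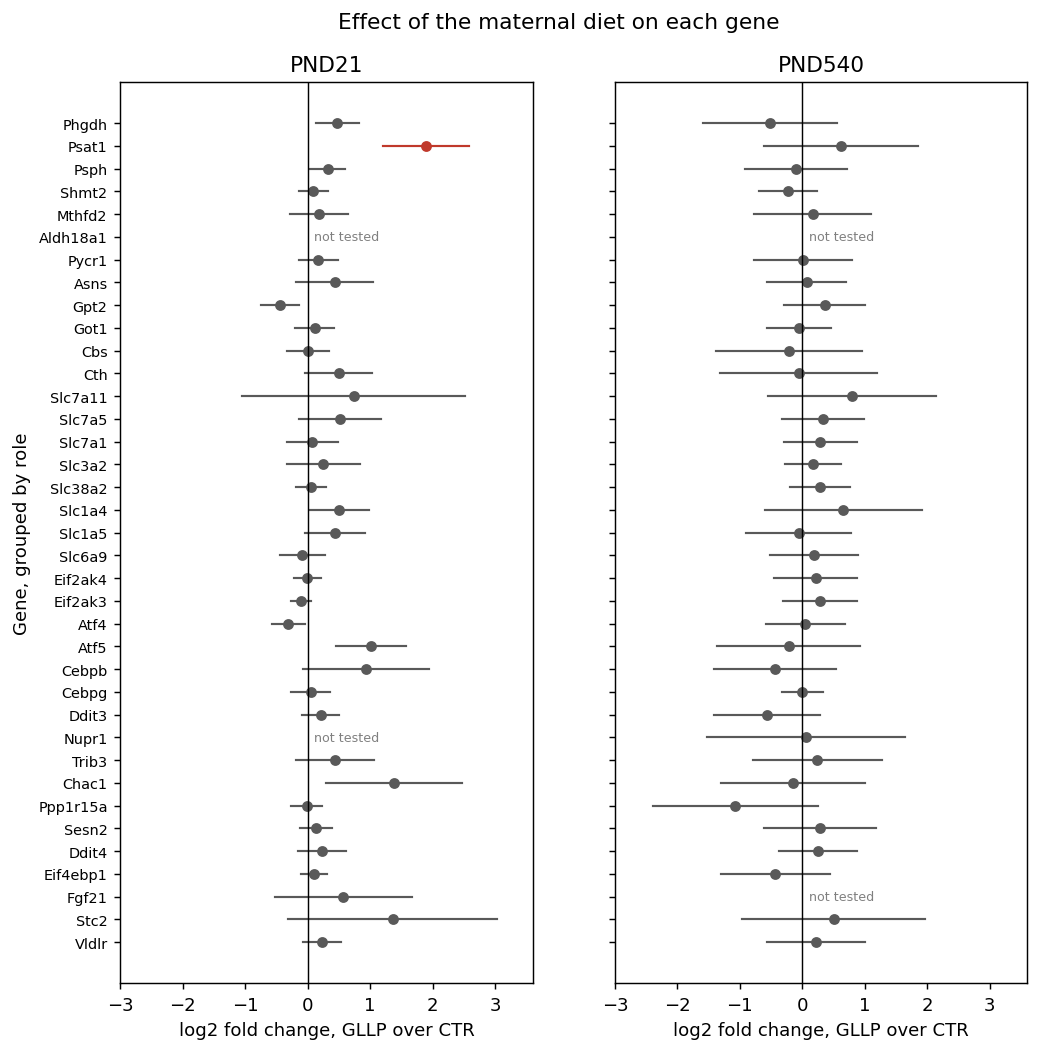
Log2 fold change of GLLP over CTR at PND21 and PND540 for each member, grouped by role, with 95% intervals from the edgeR fit; red marks a called gene and the other tested genes are grey. Psat1 at 1.89 is the only red point, and the PND540 intervals are wider than those at PND21.

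Many members had their highest level in 1 library at PND21. GLLP replicate 2 was the highest of the 7 libraries for 18 of the 35 members (51.4%), and for 12.2% of all genes tested. These were Psat1, Phgdh and Psph, the enzymes Asns and Got1, the transporters Slc7a11, Slc7a5, Slc7a1, Slc3a2, Slc38a2 and Slc1a4, the factors Atf5 and Cebpg, and Chac1, Trib3, Eif4ebp1, Stc2 and Vldlr. GLLP replicate 4 was highest for 7 members (20%, against 24.1% of all genes) and GLLP replicate 3 for 3 (8.57%, against 16.3%). CTR replicates 1 and 4 were highest for 3 and 4 members, and CTR replicates 2 and 3 for 0. Without GLLP replicate 2 the median log2 fold change of the members was 0.15, and 4 members were called (11.4%): Psat1, Atf5 and Slc1a5 higher and Gpt2 lower. The same fit called 9.96% of all genes, so the share of members lay near the background.

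**Figure D3:**
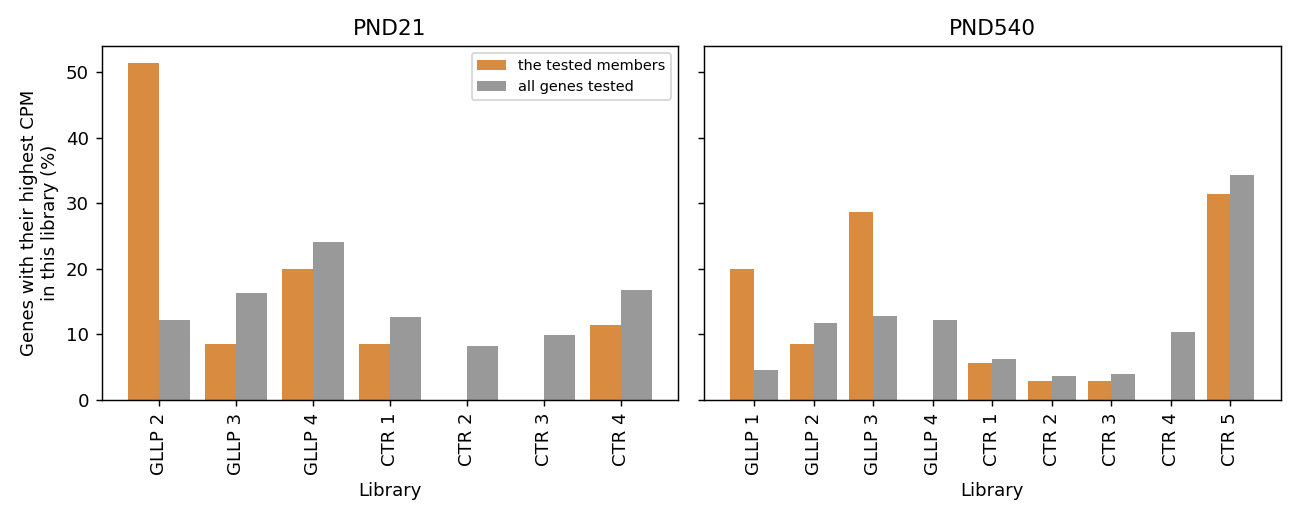
Share of the 35 tested members (orange) and of all genes tested (grey) whose highest CPM fell in each library, in percent, at PND21 and PND540. GLLP replicate 2 of PND21 takes 51.4% of the members and 12.2% of all genes; at PND540 GLLP replicates 1 and 3 take 20% and 28.6% of the members, against 4.59% and 12.8% of all genes.

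Groups that did not overlap were found in 3 members higher in GLLP (Psat1, Phgdh, Atf5; 9.49% of all genes) and 2 members lower (Eif2ak3, Gpt2; 7.6% of all genes). Skeletal muscle genes moved with the diet at this age: 16 of 18 tested markers were called higher. Marker sums here and below cover every listed marker with an entry, tested or not. For skeletal muscle the sum was 1324, 1108 and 1143 CPM in GLLP replicates 2, 3 and 4 against 388 to 461 CPM in CTR libraries. In those CTR libraries 1 to 3 of the summed markers had 0 counts. None of the members belongs to a catalogue of striated muscle genes. With that catalogue left out before the fit, Psat1 had a log2 fold change of 1.89 with an adjusted p of 0.0756 (edgeR). Leaving out other genes does not change the Psat1 counts, so this estimate could hardly have moved. Luminal secretory genes summed to 42770 to 59620 CPM in GLLP and 61300 to 76110 CPM in CTR, with 0 of 13 called, and the sums did not overlap. Other cell markers had estimates above 0 as well, with 0 called: 10 of 10 myeloid (median log2 fold change 0.41), 8 of 9 basal epithelial (0.53), 6 of 7 fibroblast (0.44) and 3 of 3 urothelial markers (2.37). Their sums in GLLP and CTR libraries were 219 to 325 and 141 to 322 CPM for myeloid, 789 to 1517 and 554 to 1020 CPM for basal epithelial, 5320 to 6712 and 3739 to 5485 CPM for fibroblast, and 10.6 to 46.4 and 10.1 to 11.7 CPM for urothelial markers. Of the remaining lists, 6 of 9 smooth muscle, 4 of 6 T and B cell, 5 of 10 cycling and 1 of 7 adipocyte markers were above 0. The part of these shifts in the members' values was not tested. In whole glands, fewer cells of a type and less RNA per cell cannot be told apart.

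Genes of the same pathways that are not members showed few calls at PND21. Of 20 aminoacyl-tRNA synthetases, which load amino acids onto transfer RNA and include many ATF4 targets, 0 were called, 11 were above 0 and the median log2 fold change was 0.04. Of 20 other serine, glycine, folate and methionine genes 0 were called; the smallest p was that of Aldh1l2, a mitochondrial folate dehydrogenase, at 6.91 ± 2.70 CPM in GLLP and 3.39 ± 0.44 CPM in CTR (SD, n = 3 and 4; log2 fold change 1.02, adjusted p = 0.101, edgeR). Ass1, which joins citrulline and aspartate on the way to arginine, was the 1 gene called among 13 of proline, glutamine, arginine and aspartate metabolism. It rose 3.39-fold, with 1.62 ± 0.65 CPM in GLLP and 0.475 ± 0.03 CPM in CTR (adjusted p = 0.0378, edgeR). Slc6a6, the taurine transporter, was the 1 gene called among 18 other amino acid transporters and fell to 11.1 ± 1.85 CPM in GLLP, against 22.7 ± 5.39 CPM in CTR (log2 fold change -1.03, adjusted p = 0.0469, edgeR).

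The other arms of the unfolded protein response were mostly lower in estimate. All 17 tested genes of the ATF6 and XBP1 arms, which raise folding capacity of the endoplasmic reticulum, had estimates below 0, with a median log2 fold change of -0.40, though 0 were called. With library sizes left uncorrected for composition, 15 lay below 0 and 2 above. Dnajb9, a chaperone partner, averaged 67.4 ± 28.8 CPM in GLLP and 133 ± 20.6 CPM in CTR (SD, n = 3 and 4; log2 fold change -0.98, adjusted p = 0.105, edgeR). Among 20 amino acid sensing and mTORC1 genes 0 were called, and Rraga, a Rag GTPase, had the smallest p (log2 fold change -0.42, adjusted p = 0.0936, edgeR).

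At PND540 the diet comparison called 0 of the 35 members tested and 0% of all 14767 genes (edgeR, smallest adjusted p 0.914). An unadjusted p under 0.05 was reached by 0 members and by 0.833% of all genes, and DESeq2 called 0 members and 2 genes in all. No member had groups that did not overlap, where 0.183% of all genes were separated with GLLP higher and 0.21% with GLLP lower. Estimates were above 0 in 22 members and the median log2 fold change was 0.07. The spread between libraries was wider than at PND21, with a biological coefficient of variation of 46.2% at PND540 against 19.6% at PND21.

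Psat1 had 23.8, 7.27, 8.06 and 4.57 CPM in GLLP replicates 1 to 4, against 6.73, 5.15, 14.0, 2.76 and 6.91 CPM in CTR replicates 1 to 5. Only GLLP replicate 1 lay above the CTR range. The log2 fold change was 0.62 with a 95% interval from -0.61 to 1.85 (adjusted p = 0.914, edgeR), and over 19 other fits it ran from -0.10 to 1.02. Phgdh had 111, 50.8, 108 and 49.9 CPM in GLLP libraries, against 111, 68.5, 107, 42.2 and 242 CPM in CTR libraries. CTR replicate 5 alone lay far above the rest, and without it the log2 fold change of Phgdh was -0.04.

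In each of the 4 members with the smallest p at PND540, CTR replicate 5 lay at or near the edge of the values. Ppp1r15a had 45.4, 44.0, 61.0 and 45.5 CPM in GLLP libraries, against 52.3, 48.5, 58.7, 46.6 and 310 CPM in CTR libraries. Apart from CTR replicate 5 the groups lay in the same range; the log2 fold change was -1.07 (SE 0.60, adjusted p = 0.914, edgeR), and -0.07 without that library. Ddit3 had 13.2, 12.1, 11.7 and 13.1 CPM in GLLP libraries, against 14.7, 10.6, 13.4, 14.0 and 39.7 CPM in CTR libraries. Again CTR replicate 5 held the highest value and the others overlapped (log2 fold change -0.56, adjusted p = 0.914, and -0.08 without that library).

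Slc38a2, a neutral amino acid carrier, had 139, 131, 167 and 123 CPM in GLLP libraries, against 122, 131, 136, 113 and 73.7 CPM in CTR libraries. Here CTR replicate 5 was the lowest library and GLLP replicate 3 the highest (log2 fold change 0.28, SE 0.22, adjusted p = 0.914, edgeR). Slc7a11 had 1.27, 0.658, 1.80 and 1.22 CPM in GLLP libraries, against 1.00, 0.867, 1.29, 0.195 and 0.206 CPM in CTR libraries. CTR replicates 4 and 5 lay below all other libraries (log2 fold change 0.80, SE 0.61, adjusted p = 0.914, edgeR).

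Of the other members at PND540, Aldh18a1 had 8, 0, 7 and 2 counts in GLLP libraries, against 0, 2, 116, 0 and 0 counts in CTR libraries, so that 1 library held nearly all of them; it was not tested, and the doubt over its entry holds here too. Fgf21, a hormone of the fasting response, lay between 0.0932 and 0.255 CPM in GLLP libraries and between 0.0716 and 1.37 CPM in CTR libraries, and was not tested either. Nupr1, a stress-induced chromatin factor, had 1.34, 0.568, 1.96 and 0.624 CPM in GLLP libraries, against 0.286, 0.643, 1.77, 0.293 and 2.41 CPM in CTR libraries, and the groups overlapped (log2 fold change 0.06, adjusted p = 0.987, edgeR). The remaining tested members had log2 fold changes between -0.43 and 0.66. CTR replicate 5 was the highest library for 11 members (31.4%, against 34.3% of all genes). GLLP replicate 3 was highest for 10 (28.6%, against 12.8%) and GLLP replicate 1 for 7 (20%, against 4.59%), and CTR replicate 4 was lowest for 11 (31.4%, against 7.73%).

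**Figure D4:**
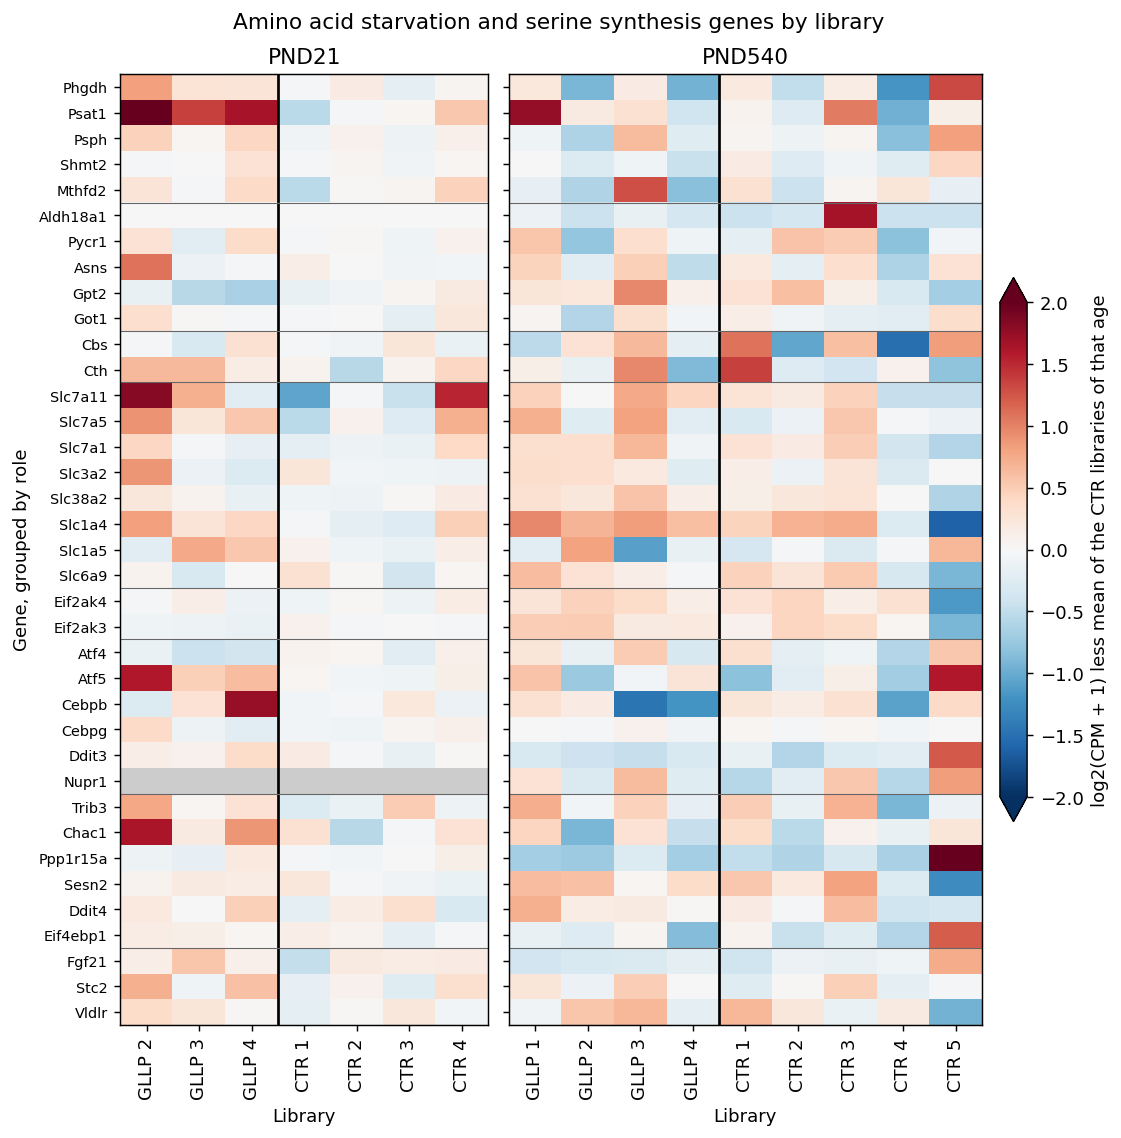
Each cell is the log2(CPM + 1) of 1 member in 1 library less the mean of the CTR libraries of the same age, with red above and blue below that mean; grey marks Nupr1, not analysed at PND21, and colours end at 2 and -2. At PND21 the column of GLLP replicate 2 is red for Psat1, Slc7a11, Atf5 and Chac1, and at PND540 the column of CTR replicate 5 is red for Ppp1r15a and Atf5 and blue for Slc1a4.

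Whether the diet effect differed between the ages was tested as an interaction, the effect at PND540 less that at PND21. It called 0 of 35 members and 0.0917% of 14178 genes (edgeR). An unadjusted p under 0.05 was reached by 1 member, where 5.17% of all genes reached it, and DESeq2 called 0 members. Psat1, called at PND21 and not at PND540, had an interaction of -1.26 on the log2 scale (SE 0.72, adjusted p = 0.738), so its effects at PND540 and PND21 are not shown to differ.

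Gpt2 had the smallest interaction p (0.80 on the log2 scale, SE 0.37, adjusted p = 0.738, edgeR). At PND540 it had 159, 156, 261 and 144 CPM in GLLP libraries, against 163, 203, 145, 108 and 82.9 CPM in CTR libraries, with wide overlap. At PND21 every GLLP value given above lay below the CTR values, but only narrowly (109.38 against 109.43 CPM). Scaled over all 16 libraries, GLLP replicate 2 of PND21 lay above CTR replicate 1 (121.89 against 121.78 CPM), so the groups overlapped there too. Fgf21 had 0.0932, 0.15, 0.158 and 0.255 CPM in GLLP libraries, against 0.0716, 0.308, 0.286, 0.341 and 1.37 CPM in CTR libraries at PND540. At PND21 it had 0.804, 1.40 and 0.749 CPM in GLLP libraries, against 0.173, 0.848, 0.811 and 0.836 CPM in CTR libraries. The groups overlapped at each age, and 1 CTR library stood off from the others at each (interaction -2.04, SE 0.98, adjusted p = 0.738).

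Chac1 had 2.89, 0.538, 2.53 and 1.11 CPM in GLLP libraries of PND540, against 2.72, 0.979, 2.06, 1.61 and 2.41 CPM in CTR libraries. GLLP values there lay on both sides of the CTR values, and the interaction was -1.53 (SE 0.77, adjusted p = 0.738, edgeR). Cebpb had 44.6, 40.3, 12.3 and 15.1 CPM in GLLP libraries of PND540, against 42.3, 39.8, 44.2, 16.5 and 47.0 CPM in CTR libraries. Both groups held low and high libraries, GLLP replicates 3 and 4 and CTR replicate 4 being low (interaction -1.35, SE 0.68, adjusted p = 0.738, edgeR).

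More members were called for age than for diet, most of them lower at PND540. The tables of the ages list different genes, so any difference in how the ages were counted cannot be told apart from age. CPM of the members are scaled here over all 16 libraries. In GLLP glands 12 of 35 tested members were called between PND540 and PND21 (34.3%, against 36.2% of 13694 genes). Of these, 2 were higher at PND540 (19.1% of all genes) and 10 lower (17.1% of all genes). In CTR glands 9 of 35 were called (25.7%, against 30.5% of 13510 genes), 1 higher (17.3% of all genes) and 8 lower (13.2% of all genes). The median log2 fold change of PND540 over PND21 was -0.48 for the members and 0.02 for all genes in GLLP, and -0.27 and 0.07 in CTR. Estimates were above 0 in 8 members in GLLP (51.3% of all genes) and in 16 in CTR (53.9% of all genes). An unadjusted p under 0.05 was reached by 17 members in GLLP (45.4% of all genes) and 11 in CTR (41% of all genes). The ages did not overlap in GLLP for 2 members higher (22.8% of all genes) and 13 lower (21.9% of all genes), and in CTR for 2 higher (18.7% of all genes) and 7 lower (19% of all genes).

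Slc7a11, Slc1a4, Slc7a5, Psat1, Ddit4 and Eif2ak4 were called lower at PND540 in both diets. These 6 members make up 50% of the calls in GLLP and 66.7% of those in CTR. Of all genes, 17.1% were called lower in GLLP and 13.2% in CTR. The share called lower in both was not counted, so the overlap is not read as a trait of the members. Slc7a11 had 1.5, 0.787, 2.11 and 1.46 CPM at PND540, against 24.0, 10.6 and 5.01 CPM at PND21 in GLLP glands. In CTR glands it had 1.17, 1.04, 1.53, 0.234 and 0.235 CPM at PND540, against 2.31, 5.92, 4.12 and 19.3 CPM at PND21. The ages did not overlap in either diet, and the log2 fold change was -3.17 in GLLP (SE 0.54, adjusted p = 0.00193, edgeR) and -3.23 in CTR (SE 0.76, adjusted p = 0.00963). Slc1a4 had 9.5, 7.73, 8.57 and 7.25 CPM at PND540, against 37.3, 24.8 and 27.8 CPM at PND21 in GLLP glands. In CTR glands it had 6.28, 7.84, 8.14, 3.45 and 0.586 CPM at PND540, against 20.0, 18.1, 17.2 and 29.3 CPM at PND21. Every PND540 library lay below every PND21 library, with CTR replicate 5 lowest (log2 fold change -1.87 in GLLP, SE 0.20, adjusted p = 0.000167; -2.004 in CTR, SE 0.58, adjusted p = 0.0254, edgeR).

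Psat1 was lower at PND540 in both diets, and the difference between its age effects in GLLP and CTR glands is the interaction given above, which was not called. It had 28.2, 8.69, 9.42 and 5.45 CPM at PND540, against 112, 53.4 and 65.2 CPM at PND21 in GLLP glands, where the ages did not overlap (log2 fold change -2.58, SE 0.53, adjusted p = 0.00495, edgeR). In CTR glands it had 7.88, 6.17, 16.7, 3.31 and 7.86 CPM at PND540, against 13.5, 19.7, 20.6 and 29.5 CPM at PND21. There CTR replicate 3 of PND540 lay within the PND21 range (log2 fold change -1.31, SE 0.42, adjusted p = 0.0401, edgeR). The GLLP libraries of PND21 are the same ones that carry the diet effect of Psat1.

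Ddit4, an mTORC1 inhibitor induced by stress, had 27.7, 18.6, 18.5 and 16.9 CPM at PND540, against 52.0, 45.5 and 63.1 CPM at PND21 in GLLP glands. In CTR glands it had 18.3, 16.3, 26.2, 12.4 and 12.1 CPM at PND540, against 39.9, 50.3, 56.6 and 36.5 CPM at PND21. The ages were fully separated in both diets (log2 fold change -1.40 in GLLP, SE 0.21, adjusted p = 0.00096; -1.43 in CTR, SE 0.26, adjusted p = 0.00251, edgeR). Eif2ak4 averaged 51.5 ± 5.16 CPM at PND540 and 95.1 ± 8.67 CPM at PND21 in GLLP glands (SD, n = 4 and 3), and 44.4 ± 15.7 CPM at PND540 and 95.9 ± 7.67 CPM at PND21 in CTR glands (n = 5 and 4).

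Few members were called higher at PND540, and none of them had a called interaction. Cebpb rose in CTR glands, with 49.5, 47.7, 52.7, 19.8 and 53.4 CPM at PND540, against 7.71, 7.81, 9.44 and 7.28 CPM at PND21. All PND540 libraries lay above all PND21 libraries, CTR replicate 4 being the lowest of them (log2 fold change 2.47, SE 0.30, adjusted p = 0.000245, edgeR). In GLLP glands Cebpb had 52.6, 48.3, 14.4 and 18.1 CPM at PND540, against 6.42, 10.1 and 29.4 CPM at PND21, and the ages overlapped. Gpt2 rose in GLLP glands, to 213 ± 62.2 CPM at PND540 against 99.7 ± 19.4 CPM at PND21 (SD, n = 4 and 3; log2 fold change 1.08, SE 0.23, adjusted p = 0.00629, edgeR). Eif2ak3 also rose there, to 200 ± 25.9 CPM at PND540 against 130 ± 2.41 CPM at PND21 (log2 fold change 0.61, SE 0.14, adjusted p = 0.00979, edgeR).

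Fgf21 fell in GLLP glands, with 0.11, 0.179, 0.185 and 0.305 CPM at PND540, against 0.896, 1.56 and 0.8294 CPM at PND21. The ages were separated at these low levels (log2 fold change -2.47, SE 0.51, adjusted p = 0.00507, edgeR). In CTR glands it had 0.0838, 0.369, 0.341, 0.41 and 1.56 CPM at PND540, against 0.193, 0.945, 0.904 and 0.931 CPM at PND21, and the ages overlapped. Cbs, the first transsulfuration enzyme, fell to 69.1 ± 24.4 CPM at PND540 against 203 ± 42.6 CPM at PND21 in GLLP glands (log2 fold change -1.57, adjusted p = 0.00227, edgeR). In CTR glands it averaged 78.9 ± 50.1 CPM at PND540 and 202 ± 24.2 CPM at PND21, and was not called (adjusted p = 0.0596). The other calls were Slc7a5, Sesn2 and Psph in GLLP glands, with adjusted p from 0.0183 to 0.0487, and Mthfd2, Slc38a2 and Slc7a5 in CTR glands, with adjusted p from 0.00527 to 0.0382, all lower at PND540.

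**Figure D5:**
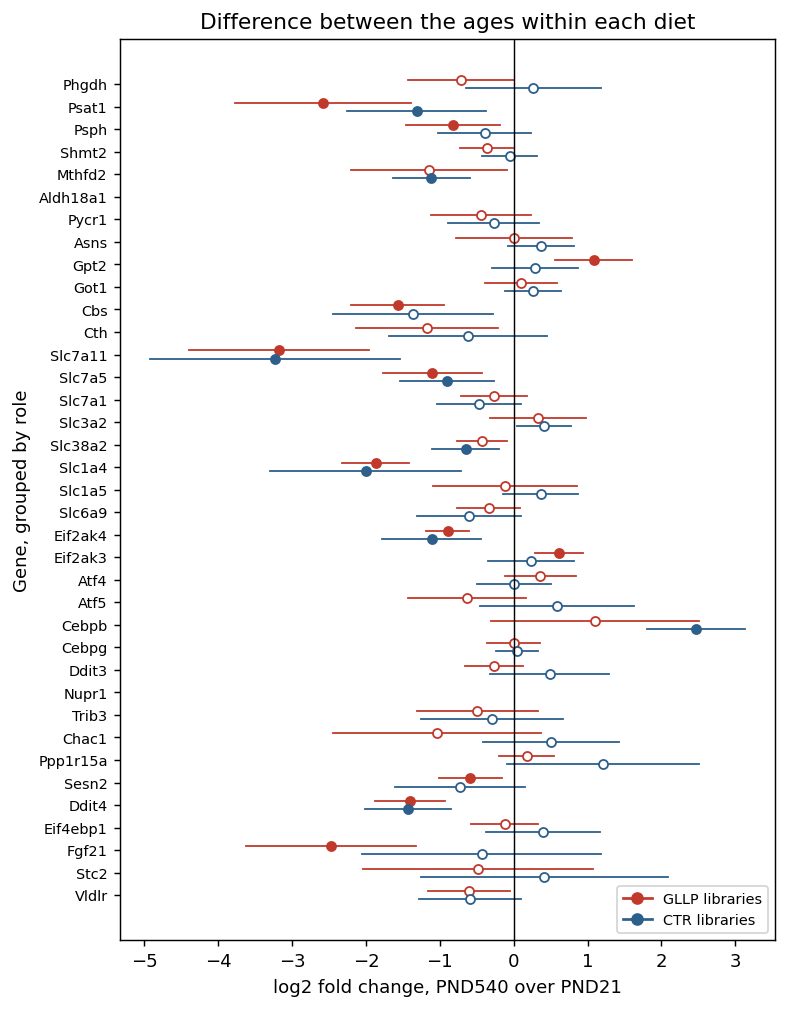
Log2 fold change of PND540 over PND21 for each member within GLLP (red) and CTR (blue) libraries, with 95% intervals from the edgeR fits; filled points are called, open points are not, and Aldh18a1 and Nupr1 were not tested. Slc7a11 lies near -3.2 in both diets, and Cebpb at 2.47 in CTR is the called point farthest to the right.

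The age calls depended on single libraries in both diets. Without CTR replicate 5 of PND540, 14 members were called (40%, against 49% of all genes), adding Psph and Cbs lower and Slc3a2, Eif2ak3 and Ppp1r15a higher. Without CTR replicate 2 or 4 of PND21, or CTR replicate 4 of PND540, 4, 4 and 5 members were called (11.4%, 11.4% and 14.3%, against 22.2%, 22.4% and 28.1% of all genes). In GLLP glands, 9 members were called without replicate 3 of PND21 (25.7%, against 24.8% of all genes). Without replicate 3 of PND540, 16 were called (45.7%, against 35.4% of all genes). Library sizes without TMM correction called 1 member higher and 16 lower in GLLP glands (48.6% of members, against 35.6% of all genes) and shifted the median over all genes by -0.18. All genes were then called higher in 1965 and lower in 2916, in place of 2611 and 2341. In CTR glands that shift was -0.12.

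Markers of cell types differed between the ages as well. Their sums use CPM scaled within each age, so the sums are not on a common scale between the ages. All 10 cycling-cell markers were called lower at PND540 in both diets, with median log2 fold changes of -4.81 in GLLP and -4.49 in CTR, and their sum was 44.5 to 66.3 CPM in the 9 libraries of PND540 and 296 to 543 CPM in the 7 libraries of PND21. Skeletal muscle markers were called lower in 18 of 18 in GLLP glands (median -4.55). In CTR glands 12 of 14 had estimates below 0 (median -1.08), with 3 called lower and 1 called higher. Smooth muscle markers were called lower in 7 of 9 in GLLP and 6 of 9 in CTR. Of 8 fibroblast markers, 6 were called lower and 1 higher in GLLP, and 4 lower and 1 higher in CTR. Basal epithelial markers were called lower in 4 of 9 in GLLP, and 1 of 9 was called higher in CTR. Of 10 myeloid markers, 4 were called higher in GLLP, and 6 higher and 1 lower in CTR. T and B cell markers were called higher in 2 of 7 in GLLP and 5 of 8 in CTR, adipocyte markers in 6 of 8 in GLLP and 1 of 8 in CTR, and urothelial markers in 0 of 5 in GLLP and 3 of 4 in CTR. Luminal secretory markers were called in both directions, 2 higher and 3 lower of 12 in GLLP and 3 higher and 2 lower of 11 in CTR. Summed smooth muscle markers were 587 to 1486 CPM at PND540 and 3453 to 4003 CPM at PND21 in GLLP, and 497 to 1516 CPM at PND540 and 3166 to 3708 CPM at PND21 in CTR. Summed myeloid markers were 458 to 836 CPM at PND540 and 219 to 325 CPM at PND21 in GLLP, and 538 to 1736 CPM at PND540 and 141 to 322 CPM at PND21 in CTR. The part of these shifts in the members' values was not tested.

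Related genes outside the set moved in both directions with age. Of 21 other serine, glycine, folate and methionine genes, 3 were called higher and 3 lower at PND540 in GLLP glands, and 3 higher and 4 lower in CTR glands. Tyms, the thymidylate synthase of dividing cells, was among the lower ones, with a log2 fold change of -2.30 in GLLP and -2.25 in CTR. Slc38a1, a glutamine carrier outside the set, was higher at PND540 (2.17 in GLLP and 1.98 in CTR on the log2 scale), 1 of 5 other transporters called higher in each diet, where 3 were called lower, of 19 tested in GLLP and 18 in CTR. Of 18 amino acid sensing genes, 4 were called in GLLP and 3 in CTR, all higher. Sesn3 (2.86 in GLLP and 2.25 in CTR on the log2 scale), Deptor (2.77 in GLLP and 2.65 in CTR) and the Rag GTPase Rragd (1.34 in both) were called in both diets, and Rragc (0.34) in GLLP. Of 17 genes of the ATF6 and XBP1 arms, Xbp1 (1.04 in GLLP and 0.96 in CTR) and Atf6 (1.504 in GLLP and 0.94 in CTR) were called higher in both diets. Dnajb9 (1.03) was called higher in GLLP and Sel1l, a component of protein disposal from the endoplasmic reticulum, lower in CTR (-0.99). Of 12 genes of proline, glutamine, arginine and aspartate metabolism, the arginase Arg1 (-1.79), Aldh4a1 (-0.70) and Oat (-0.68) were called lower in GLLP. In CTR the arginase Arg2 (-0.78) was called lower and Ass1 (1.15) higher. Among 20 aminoacyl-tRNA synthetases 1 was called in GLLP, Vars (log2 fold change -0.44, adjusted p = 0.0217), and 0 in CTR.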

How the data were processed

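Messenger RNA of 16 ventral prostates was sequenced from standard Illumina libraries, per the labels' protocols. The authors deposited raw counts per gene, 1 table per age, as whole numbers without normalization. Per the submitters' processing notes, STAR, edgeR 3.34.0 and the build Rnor_6.0 were used, with no role stated. Which counting tool, annotation and strand setting was used is not known here, so overlapping and antisense genes cannot be told apart. The tables share 19709 names, which the age comparisons and the interaction used.

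Diet was compared within each age (7 libraries at PND21, 9 at PND540), age within each diet, and the interaction over 16 libraries. The test was the quasi-likelihood test of edgeR 4.0.16 (R 4.3.3), after filterByExpr and TMM, with robust dispersions and Benjamini-Hochberg adjustment over all genes tested at 0.05. Standard errors are the log2 fold change over the root of F. CPM use TMM-scaled library sizes. Replicate pairs differed beyond sampling noise (chi-square per degree of freedom 30.3 to 829), so none was merged. The fit was tested on simulated data before use. For diet it recovered 61.2% of 2-fold and 87.9% of 4-fold changes at PND21, and 5.97% and 50% at PND540. In the interaction it recovered 0% and 21.2%. Calls of 0 members there and at PND540 thus do not show that such changes are absent.

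All 37 members and the lists of related genes and cell markers were chosen with earlier results of these data known. Members given by library are those called for diet, the 8 with the smallest p at PND21, the 4 at PND540 and in the interaction, and the 4 called members with the largest change in each age comparison. A few others (Asns, Eif2ak3, Slc7a11 and Cebpb at PND21, Phgdh, Psat1, Nupr1 and Aldh18a1 at PND540) were added after their values were seen. In lists of related genes, the called ones are named where 4 or fewer were called, and otherwise some of the 4 with the smallest p; for lists with no call, some genes with the smallest p are named at PND21 only.

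Alternatives were other scalings (RLE, or library size only), DESeq2 1.42.0, looser and stricter filters, dispersions without robust fitting, a joint fit, a replicate block and each library left out. Limma 3.58.1 voom with sample quality weights, fits without 218 striated muscle genes or without mitochondrial genes, and PND540 without CTR replicates 1 and 5 were added after seeing the data. Promoter sequences are from RefSeq (GRCr8). Figures were drawn with matplotlib 3.10.9.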

Additional observations from a re-analysis of the deposited data

Results flagged for a closer look

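In groups of 4 to 10 libraries, a library was singled out when its gap to the nearest other library, over the range of the group, passed Dixon's 95% critical value. Of 107 groups examined, 17 held such a library. For normally distributed values, chance alone singles out about 1 in 20. The rule was run on CPM without a log scale, where this share may not hold. Members also share the same libraries and are not independent. The share of all genes with such a library was not counted.

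At PND540, CTR replicate 5 was the library singled out for 7 members. It held 310 CPM of the phosphatase subunit Ppp1r15a (46.6 to 58.7 in the other CTR libraries), 675 CPM of the translation repressor Eif4ebp1 (192 to 304), 117 CPM of Atf5 (21.0 to 41.1) and 39.7 CPM of Ddit3 (10.6 to 14.7). It also held 32.6 CPM of the glutamine carrier Slc1a5 (15.9 to 20.0) and 1.37 CPM of Fgf21 (0.0716 to 0.341), and it was low in Eif2ak4, at 15.2 CPM (38.2 to 47.3). This library stood apart over all genes too. It lay outside the range of all other PND540 libraries in 70.7% of genes, against 7.56% to 25.6% for each of those.

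Other CTR libraries of PND540 were singled out once or more. CTR replicate 3 had 39.6 CPM of Slc7a5 (21.6 to 26.5 in the others) and 3.31 CPM of Aldh18a1 (0 to 0.0559). CTR replicate 1 had 17.6 CPM of Cth (3.13 to 6.63), and CTR replicate 4 had 16.5 CPM of Cebpb (39.8 to 47.0).

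Among GLLP libraries of PND540, replicate 3 was singled out for Gpt2, at 261 CPM (144 to 159 in the others), and for Ppp1r15a, at 61.0 CPM (44.0 to 45.5). At PND21, where the 3 GLLP libraries are too few for the test, CTR replicate 4 had 113 CPM of Slc7a1 (75.6 to 79.9), CTR replicate 3 had 6.37 CPM of Trib3 (3.32 to 3.82), and CTR replicate 1 had 236 CPM of Slc3a2 (186 to 193) and 0.173 CPM of Fgf21 (0.811 to 0.848). The causes were not tested.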

How the results depend on the processing

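At PND21, where 1 member was called, 3 were called with library size alone (Psat1, Phgdh, Atf5), 8.57% against 4.36% of all genes. DESeq2 called 2 (Psat1, Atf5), 5.71% against 6.52% of all genes. Limma voom called 6 (Psat1, Atf5, Cth and Slc1a5 higher, Atf4 and Gpt2 lower), 17.1% against 23.4% of all genes. Without a filter, with a replicate block, in the joint fit or without the striated muscle catalogue, 0 members were called. Those fits called 0.973%, 0.181%, 0.282% and 0.0339% of all genes. With each library left out in turn the count ran from 0 to 4 (0% to 11.4% of members, against 0.411% to 9.96% of all genes). Adjusted p of Psat1 was 0.0588 without a filter and 0.535 in the joint fit. The count over all genes at PND21 was 166, and was 5 without the catalogue, 27 with the replicate block, 40 in the joint fit, 650 with library size alone, 972 with DESeq2, 3490 with limma voom and 62 to 1509 with a library left out. For age in CTR glands, the 9 members called numbered 14 with a replicate block (40%, against 44.5% of all genes), 15 with limma voom (42.9%, against 55.2%), and 4 to 14 with a library left out. For age in GLLP glands the 12 numbered 19 with limma voom (54.3%, against 52.6% of all genes). DESeq2 called 15 there (42.9%, against 40.8% of all genes). Fits with a library left out called 9 to 16 (25.7% to 45.7%, against 24.8% to 38.8% of all genes). At PND540 and in the interaction 0 members were called under every alternative run. No called value changed sign under any alternative run. The causes were not tested.

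Whether replicate numbers shared by the diets pair the samples is not stated in the labels, and so few correlations cannot settle it. Deviations of same-numbered libraries correlated at -0.146, 0.107 and -0.125 at PND21 and between -0.133 and 0.286 at PND540, not every library matched its own number best, and titles and descriptions number the GLLP samples differently. With the replicate block, Psat1 at PND21 had a log2 fold change of 1.68 (adjusted p = 0.173, edgeR).

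Depth limits the low members: Fgf21, Stc2 and Chac1 rest on few counts in many libraries. At PND540 so do Slc7a11 (6 to 45 counts in CTR and 22 to 57 in GLLP libraries) and Nupr1 (8 to 70 and 19 to 62). Slc1a4 had 15 counts in CTR replicate 5 of PND540. With 3 GLLP libraries at PND21 and a biological variation of 46.2% at PND540, against 19.6% at PND21, the PND540 intervals are wide.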
